A study of Drosophila melanogaster with 6 samples.

Results

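The subject here is a small group of microRNAs (miRNAs) known from muscle and gut, read in fly ovaries. It comprises the precursors dme-mir-1, dme-mir-133, dme-mir-281-1 and dme-mir-281-2. Every entry for either arm of these precursors was taken, which gave 8 of the 474 rows of the deposited count table and 7 of its 466 mature miRNAs. Both miR-281 copies list the same 3p arm, so miR-281-3p is treated as a single measurement. Ovaries of 7-day-old adult *Drosophila melanogaster* were profiled by small RNA sequencing in 2 libraries for each of 3 genotypes. The mei-p26 flies are mutant for mei-P26, a TRIM-NHL protein of the germline. The wh7 flies are mutant for wuho, a WD40 repeat protein that the germline needs. The w1118 flies are the control, and w1118 is also the strain background given for both mutants. All were kept at 25 degrees. The labels name no allele of mei-p26 and do not say how many animals went into a library or whether the duplicates came from separate flies, so that every p-value below speaks of the spread among the libraries at hand, and that spread may be technical.

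A miRNA precursor is a hairpin whose 5p and 3p arms can each yield a mature strand, and usually one arm is loaded into Argonaute while the other is degraded. In flies, miR-1 is made in muscle under factors such as Mef2 and is needed for muscle growth in the larva. In vertebrates, miR-133 is cotranscribed with miR-1. miR-281 is known from the insect gut and from the Malpighian tubule, the excretory organ attached to it. The ovary has muscle of its own, in the peritoneal sheath around the ovary and in the epithelial sheath around each ovariole. Whole ovaries were sequenced, and fewer cells of a type cannot be told apart from less miRNA per cell.

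By name, all 4 precursors matched RefSeq genes of a later genome release than the BDGP5 build of the study, and that annotation served only for names and neighbours. dme-mir-1 lies on chromosome arm 2L inside the non-coding gene lncRNA:CR45361, on the same strand, which carries the synonym pri-mir-1. dme-mir-133 is also on 2L, inside lncRNA:CR44909, which runs on the opposite strand. dme-mir-281-1 and dme-mir-281-2 are neighbours on arm 2R inside Oda, the gene of ornithine decarboxylase antizyme, on its strand. Both also lie inside asRNA:CR46194, which is annotated on that same strand.

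Library totals ran from 144175 to 249262 counts. Where a library held 0 counts, a level of 3 counts remained possible, which was at most 20.8 CPM (counts per 1000000 of the library total). This floor and all intervals below are for counting error alone. Those miRNAs with known roles in follicle cells of the ovary (miR-989, miR-279, miR-996, miR-318 and miR-994) were abundant. They summed to between 183529 and 424496 CPM after TMM scaling. Neuronal miRNAs were near the floor, with 1 to 8 counts a library over miR-124, miR-137, miR-210 and miR-219, and miR-124 was at 0 in all 6. TMM scaling adjusts library totals for differences in composition. Levels below are on that scale, and groups are given as mean ± SD of 2 libraries. Fold changes come from edgeR's two-sided quasi-likelihood test over all 150 rows that passed its filter, as log2 ± approximate SE. A row counted as changed when its Benjamini-Hochberg adjusted p was below 0.05.

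The muscle miRNA miR-1-3p was among the most abundant miRNAs of these ovaries, and it was higher in both mutants than in the control. It had 22522 and 27334 CPM in mei-p26 libraries (5503 and 7886 counts), 22981 and 23998 CPM in wh7 libraries (3369 and 5333 counts), and 16816 and 10878 CPM in w1118 libraries (2253 and 1518 counts). All 4 mutant libraries lay above both w1118 libraries, and the mei-p26 values spanned those of wh7. Among all mature miRNAs it ranked 13 and 9 in mei-p26, 12 in each wh7 library, and 16 and 20 in w1118. The w1118 libraries themselves differed by 1.55 times on this scale, and before TMM scaling by more than counting error allows: miR-1-3p made up 1.47% of replicate 1 (exact 95% interval 1.41% to 1.54%) and 1.05% of replicate 2 (1.00% to 1.11%).

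miR-1-3p rose in mei-p26 to 24928 ± 3403 CPM, against 13847 ± 4199 CPM in w1118, for a log2 fold change of 0.85 ± 0.25 (edgeR, adjusted p = 0.0107). In wh7 it rose to 23489 ± 719.0 CPM, against that same w1118 mean, for a log2 fold change of 0.76 ± 0.25 (edgeR, adjusted p = 0.0387). Both comparisons use the same w1118 libraries, so the second rise is not independent of the first. Between the mutants, miR-1-3p had a log2 fold change of 0.09 ± 0.24 in mei-p26 against wh7 (edgeR, adjusted p = 0.850), and the sign turned under upper-quartile scaling, in a fit of those groups alone and when some libraries were left out. Leaving out w1118 replicate 2 lowered the rises to 0.28 in mei-p26 (edgeR, adjusted p = 0.353) and 0.30 in wh7 (0.407), or to 0.57 and 0.48 with the scaling factors of all 6 libraries kept (edgeR, adjusted p = 0.105 and 0.239), while leaving out w1118 replicate 1 gave 1.18 and 1.22. The call in mei-p26 was also lost without mei-p26 replicate 2 (0.66, adjusted p = 0.199) or wh7 replicate 1 (0.61, adjusted p = 0.203), and the call in wh7 without mei-p26 replicate 2 (0.67, adjusted p = 0.141) or wh7 replicate 1 (0.68, adjusted p = 0.543) or wh7 replicate 2 (0.77, adjusted p = 0.228), all by edgeR. Of 17 other settings or sets of libraries tried, 13 kept the call in mei-p26 and 7 that in wh7. In the authors' deposited table miR-1-3p is given as 2.2-fold higher in mei-p26 with an adjusted p of 0.0690, and as 1.82-fold higher in wh7 with an adjusted p of 0.0992.

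**Figure D1:**
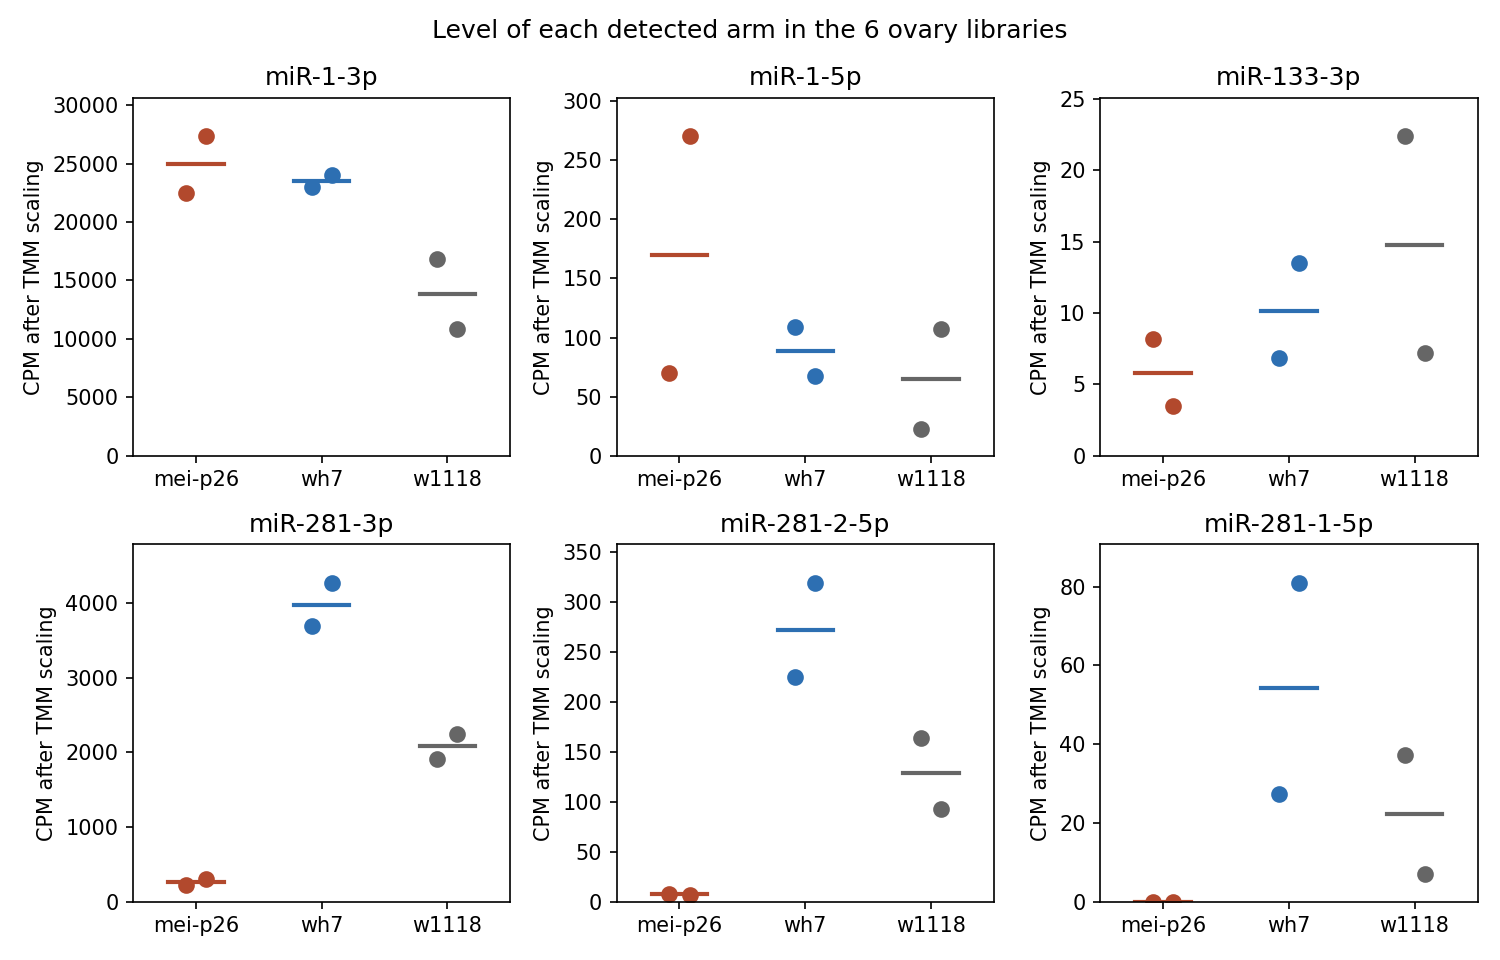
CPM after TMM scaling of each detected arm in the 2 libraries of mei-p26, wh7 and w1118 (points, with the group mean as a line; each panel has its own linear axis from 0). miR-1-3p lies higher in all 4 mutant libraries than in w1118, the 3 miR-281 arms are lowest in mei-p26, and miR-133-3p holds 1 to 3 counts a library.

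The passenger arm miR-1-5p was rare. It had 17 and 78 counts in mei-p26 libraries, 16 and 15 in wh7 and 3 and 15 in w1118. Its replicates differed widely, by 3.89 times in mei-p26 and 4.80 times in w1118 on the CPM scale, and all 3 groups overlapped. The log2 fold change was 1.38 ± 0.70 in mei-p26 against w1118 (edgeR, adjusted p = 0.133) and 0.40 ± 0.76 in wh7 against w1118 (edgeR, adjusted p = 0.781). The value in wh7 had no stable direction, at -0.21 without w1118 replicate 1 and 1.74 without w1118 replicate 2. Between the mutants it was 0.98 ± 0.65 in mei-p26 against wh7 (edgeR, adjusted p = 0.307). It was high in mei-p26 replicate 2 alone, and without mei-p26 replicate 1 the values became 2.03 against w1118 (edgeR, adjusted p = 0.00495) and 1.62 against wh7 (0.0178). Per 1000 counts of miR-1-3p there were 3.09 and 9.89 of miR-1-5p in mei-p26, 4.75 and 2.81 in wh7, and 1.33 and 9.88 in w1118, so that the 3p arm held nearly all reads of this hairpin in every library.

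miR-133, the other muscle miRNA of the group, was barely detected. miR-133-3p had 2 and 1 counts in mei-p26 libraries, 1 and 3 in wh7 and 3 and 1 in w1118, and miR-133-5p had 0 in all 6. These counts lie at the floor, did not pass the filter and were not tested. Per library total, miR-133-3p in mei-p26 was 0.466 times its w1118 level (exact 95% interval 0.0682 to 2.75), and in wh7 it was 0.787 times that level (0.147 to 4.22), so that differences of several fold were not detectable at this depth. For every 100 counts of miR-1-3p a library held 0.0127 to 0.133 counts of miR-133-3p, so that miR-1 gave nearly all reads of the muscle members.

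miR-281-3p, the gut and Malpighian tubule miRNA, moved in opposite directions in the mutants. It had 229 and 302 CPM in mei-p26 libraries (56 and 87 counts), 3683 and 4270 CPM in wh7 libraries (540 and 949 counts), and 1911 and 2250 CPM in w1118 libraries (256 and 314 counts). The 3 genotypes did not overlap, with mei-p26 lowest and wh7 highest. Its rank among all mature miRNAs was 86 and 85 in mei-p26, 34 and 33 in wh7, and 43 and 41 in w1118.

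miR-281-3p fell in mei-p26 to 265 ± 51.2 CPM, against 2080 ± 240.0 CPM in w1118, with a log2 fold change of -2.96 ± 0.30 (edgeR, adjusted p = 1.59e-07). It rose in wh7 to 3977 ± 415 CPM, against that w1118 mean, by 0.93 ± 0.28 on the log2 scale (edgeR, adjusted p = 0.0218). Set against each other, mei-p26 was lower than wh7 by a log2 fold change of -3.90 ± 0.31 (edgeR, adjusted p = 3.81e-09). The fall in mei-p26 was called under all 17 other settings or sets of libraries tried, from -3.20 to -2.69, with adjusted p up to 0.000821, and so was the difference between the mutants, from -4.13 to -3.71. The rise in wh7 was called under 13 of 17 and lost when any 1 of the 2 wh7 or 2 w1118 libraries was left out, with values of 0.86 to 0.95 and adjusted p of 0.0921 to 0.260. In the authors' deposited table miR-281-3p has a signed fold change of -6.49 in mei-p26, negative for a lower level, with an adjusted p of 4.12e-13, and of 2.02 in wh7 with an adjusted p of 0.0196.

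The 5p arms separate the 2 miR-281 copies, since each has its own mature name, whereas the 3p arm carried the same counts on both rows in all 6 libraries and its reads were either counted on each row or divided evenly. If they were divided, the levels, ranks and ratios to miR-1-3p given here for miR-281-3p are too low and the ratios of 5p to 3p too high, by the same factor in every library. miR-281-2-5p had 2 and 2 counts in mei-p26 libraries, 33 and 71 in wh7 and 22 and 13 in w1118. The 3 genotypes did not overlap, in the same order as for the 3p arm, which this hairpin also yields, so the 2 arms are not independent. How many of all tested rows separate likewise was not counted. miR-281-2-5p fell in mei-p26 by a log2 fold change of -3.98 ± 0.73 against w1118 (edgeR, adjusted p = 0.000217), called under all 16 other settings that tested it. As a ratio of summed counts per total, mei-p26 held 0.0709 times the w1118 level, with an exact 95% interval of 0.0183 to 0.198. In wh7 its log2 fold change was 1.09 ± 0.51 against w1118 and did not pass (edgeR, adjusted p = 0.160), with 1.67 without w1118 replicate 1 and 0.55 without w1118 replicate 2. In mei-p26 it was lower than in wh7 by a log2 fold change of -5.08 ± 0.68 (edgeR, adjusted p = 3.57e-06).

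miR-281-1-5p, from the other copy, had 0 and 0 counts in mei-p26 libraries, 4 and 18 in wh7 and 5 and 1 in w1118, and did not pass the filter. With 3 counts over the mei-p26 group as the floor, it was at least 3.22-fold lower in mei-p26 than in w1118 and at least 9.29-fold lower than in wh7. These bounds take the wh7 and w1118 counts as exact, and 5 of the 6 w1118 counts came from 1 library, so the bound against w1118 rests on that library. In wh7 against w1118 the ratio of 22 to 6 counts per library total was 2.88, with an exact 95% interval of 1.13 to 8.70, and one wh7 library lay below the higher of w1118. Of all 5p reads of both copies, miR-281-1-5p made up 0 of 4 in mei-p26 (exact 95% interval up to 60.2%), 22 of 126 in wh7 (17.5%, 11.3% to 25.2%) and 6 of 41 in w1118 (14.6%, 5.57% to 29.2%). The intervals overlap, so a difference in the use of the copies was not detectable at this depth. Over all 6 libraries, 143 of the 171 reads of the 5p arm carried the miR-281-2 name.

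**Figure D2:**
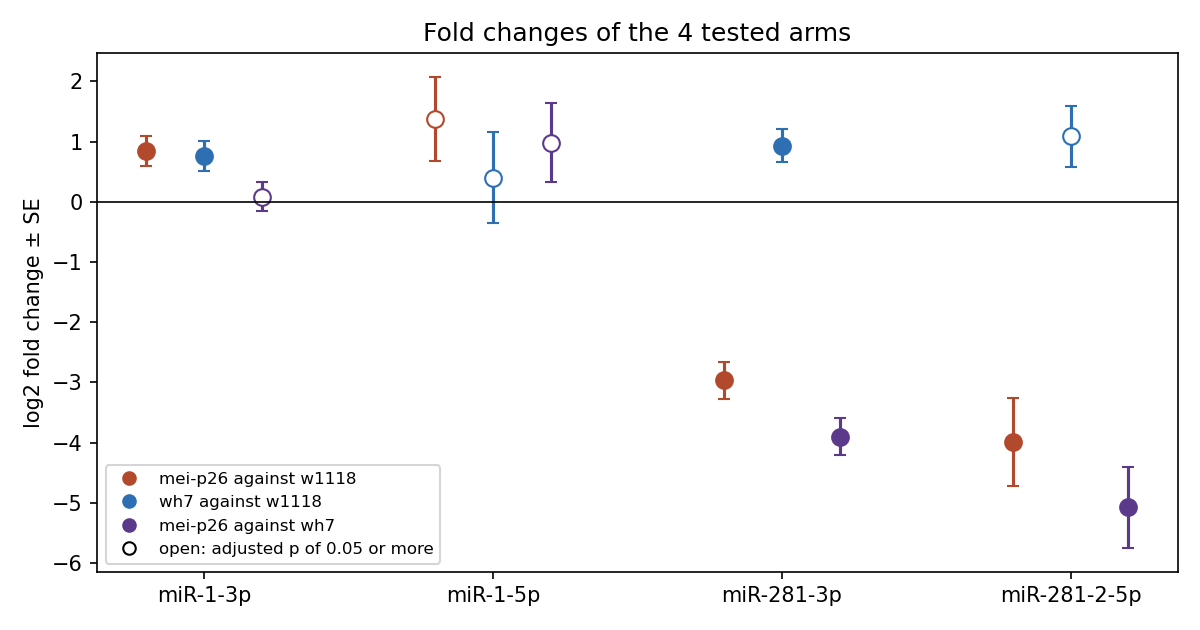
Log2 fold change ± SE (edgeR quasi-likelihood fit of all 6 libraries) of the 4 arms that passed the filter, for mei-p26 against w1118, wh7 against w1118 and mei-p26 against wh7; filled points have an adjusted p below 0.05. Both miR-281 arms lie well below 0 wherever mei-p26 is compared, and miR-1-3p lies near 0 between the mutants.

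Of the 7 mature miRNAs, 4 passed the filter and 3 did not (miR-133-3p, miR-133-5p and miR-281-1-5p). In mei-p26 against w1118, 1 of the 4 was higher and 2 were lower, where 34% of the 150 tested rows were called, 21.3% as higher and 12.7% as lower. In wh7 against w1118, 2 of the 4 were higher and 0 lower, where 15.3% of rows were called, 11.3% as higher and 4% as lower. In mei-p26 against wh7, 0 were higher and 2 lower, where 27.3% of rows were called, 12.7% as higher and 14.7% as lower. In both comparisons of mei-p26 the 2 lower arms were miR-281-3p and miR-281-2-5p. They are arms of the same hairpin, so they are not independent. By size of the log2 fold change, miR-281-3p ranked 20.5 of 150 rows in mei-p26 against w1118 and 22.5 in mei-p26 against wh7. Its 2 rows are identical and share a rank. miR-281-2-5p, with 2 counts in each mei-p26 library, ranked 17 and 8, miR-1-5p 44 and 45, and miR-1-3p 66 and 133. In wh7 against w1118, miR-281-2-5p ranked 30, miR-281-3p 35.5, miR-1-3p 49 and miR-1-5p 84. The median log2 fold change of all tested rows was 0.08 in each mutant against w1118 and 0.13 between the mutants. Under total-count scaling the median of all rows stood at 0.35 in mei-p26 against w1118, and under upper-quartile scaling at -0.14. With these, the log2 fold change of miR-1-3p was 1.14 under total-count scaling and 0.60 under upper-quartile scaling (edgeR, adjusted p = 0.00287 and 0.129), and that of miR-281-3p was -2.69 and -3.18.

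Ratios between arms of the group within a library do not depend on how libraries are scaled. For every 100 counts of miR-1-3p there were 1.02 and 1.10 counts of miR-281-3p in mei-p26 libraries, 16.0 and 17.8 in wh7 libraries and 11.4 and 20.7 in w1118 libraries. The mei-p26 ratios lay far below all others, while the wh7 ratios fell between those of w1118. With 2 libraries against 2, an exact two-sided permutation test cannot give a p below 0.333, and no model was fitted to this ratio, which is given as a description. Both 5p arms of miR-281 summed to 35.7 and 23.0 per 1000 counts of miR-281-3p in mei-p26, 68.5 and 93.8 in wh7, and 105 and 44.6 in w1118. The mei-p26 ratios were the lowest, but rest on 2 counts in each library.

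**Figure D3:**
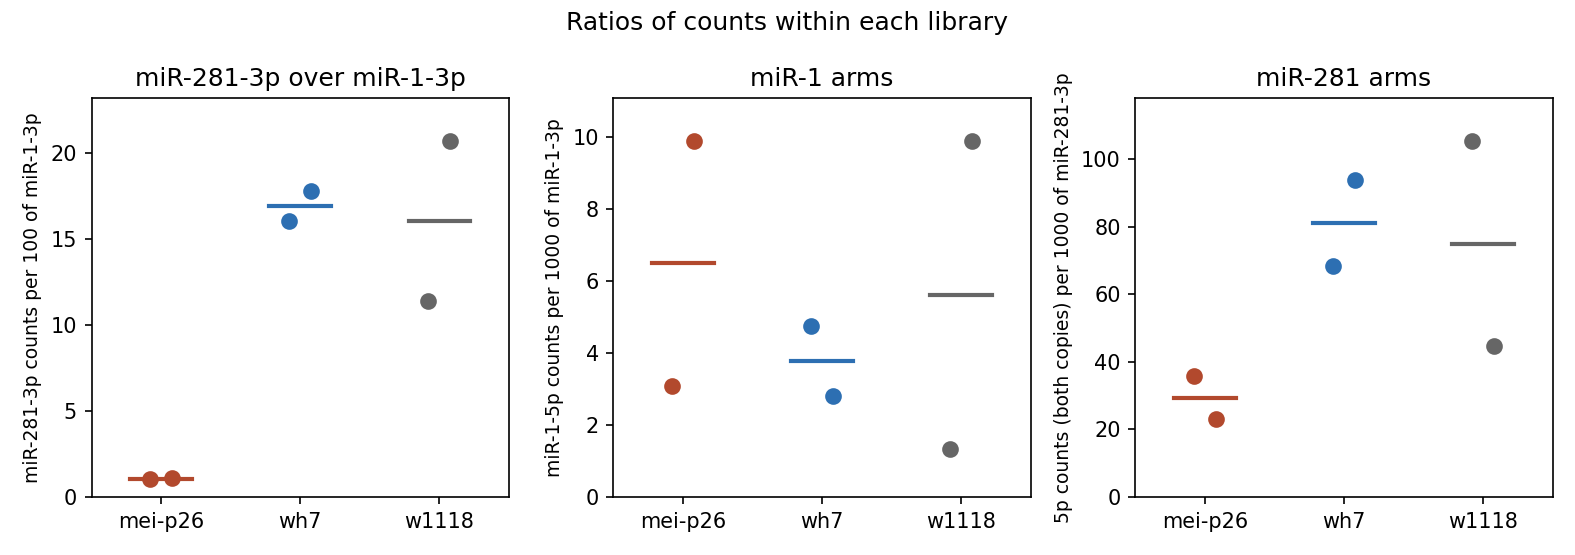
Counts of one arm relative to another in the same library, for the 2 libraries of mei-p26, wh7 and w1118 (points, with the mean as a line; linear axes from 0). miR-281-3p per 100 counts of miR-1-3p is 1.02 and 1.10 in mei-p26 and 11.4 to 20.7 in the other 4 libraries, while both arm ratios vary as much between replicates of a genotype as between genotypes, except for the low miR-281 values of mei-p26.

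The balance of the arms was tested with limma on the log2 ratio of 5p to 3p counts, for the 50 precursors with a mean of at least 10 counts on each arm. Of these, 2% were called in mei-p26 against w1118 and likewise 2% in wh7 against w1118, in each case dme-mir-991 alone. Its 5p arm had 0 counts in all wh7 and w1118 libraries, so that these calls follow its 3p arm against the pseudocount and show no change of arm balance. In mei-p26 against wh7 the share was 0%, with 5 precursors at an unadjusted p under 0.05. Neither dme-mir-1 nor dme-mir-281-2 was among the calls. For dme-mir-281-2 the 3p counts are those shared with dme-mir-281-1, so its ratio is not of that hairpin alone and would also move with the use of the copies. For dme-mir-281-2 the log2 ratio differed by -0.57 ± 0.45 in mei-p26 against w1118 (limma, adjusted p = 0.465) and by -0.70 ± 0.45 in mei-p26 against wh7 (limma, adjusted p = 0.563). Both signs turned with a pseudocount of 5 in place of 1 (0.29 and 0.33), and leaving out w1118 replicate 1 or 2 gave -0.069 or -1.08 against w1118. For dme-mir-1 it differed by 0.40 ± 0.91 in mei-p26 against w1118 (limma, adjusted p = 0.817) and by -0.15 ± 0.91 in wh7 against w1118 (limma, adjusted p = 0.908). Without w1118 replicate 1 or 2 these became -0.88 or 1.69 in mei-p26 and -1.44 or 1.13 in wh7, so that no direction can be given for the arm balance of dme-mir-1.

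Other miRNAs with known roles in the same tissues were listed for comparison. Among those of muscle, miR-9a-5p, which acts in flight muscle and in sense organ precursors, had 287 and 382 counts in mei-p26, 118 and 288 in wh7 and 55 and 41 in w1118. Its log2 fold change was 1.83 ± 0.35 in mei-p26 (edgeR, adjusted p = 0.000320) and 1.58 ± 0.35 in wh7 (edgeR, adjusted p = 0.00342). miR-92b-3p, which forms a feedback loop with Mef2 in muscle, had log2 fold changes of -0.92 ± 0.51 in mei-p26 (edgeR, adjusted p = 0.168) and -0.82 ± 0.53 in wh7 (edgeR, adjusted p = 0.311). Thus of 2 tested arms of this list 1 rose and 0 fell in each mutant, where 21.3% of all tested rows were higher and 12.7% lower in mei-p26, and 11.3% higher and 4% lower in wh7.

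Of the gut list, miR-263a and miR-305, all 4 arms were tested. Against w1118, 0 were called in either mutant by edgeR, DESeq2 or limma-voom. Of all tested rows, edgeR called 34% in mei-p26 and 15.3% in wh7. At an unadjusted edgeR p under 0.05 there was 1 arm of the list in mei-p26 (miR-263a-5p) and 0 in wh7. miR-263a-5p had 240 and 189 counts in mei-p26, 235 and 361 in wh7 and 190 and 160 in w1118. Its log2 fold change was -0.65 ± 0.31 in mei-p26 (edgeR, adjusted p = 0.110) and 0.33 ± 0.31 in wh7 (edgeR, adjusted p = 0.536). Between the mutants it was lower in mei-p26, by -0.98 ± 0.31 (edgeR, adjusted p = 0.0181). This was the single call of that list, in a comparison where 27.3% of all tested rows were called. miR-305-5p, which acts in intestinal stem cells, had -0.06 ± 0.26 in mei-p26 (edgeR, adjusted p = 0.888) and 0.25 ± 0.26 in wh7 (edgeR, adjusted p = 0.598). The 3p arms of both hairpins had values above 0 in each mutant. miR-263a-3p had 0.22 ± 0.53 in mei-p26 and 0.89 ± 0.53 in wh7 (edgeR, adjusted p = 0.792 and 0.286). For miR-305-3p they were 0.47 ± 0.34 and 0.35 ± 0.34 (edgeR, adjusted p = 0.298 and 0.563).

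Levels of miRNAs with known roles in the ovary, which need not be particular to it, are given beside these. Summed over the follicle cell list, the level was 227963 and 183529 CPM in mei-p26, 372343 and 345838 in wh7, and 424496 and 361646 in w1118. In mei-p26 against w1118, 3 of its 8 tested arms fell (miR-994-5p, miR-994-3p and miR-318-3p) and 0 rose. Of all tested rows, 34% were called there, 21.3% as higher and 12.7% as lower. Among the arms not called, miR-279-3p, miR-996-5p and miR-989-5p had log2 fold changes of 0.30, 0.70 and 1.20. miR-989-3p and miR-996-3p had -0.40 and -0.27. In wh7 against w1118, 0 of 8 were called by edgeR or the other tools (2 had an unadjusted edgeR p under 0.05). There edgeR called 15.3% of all tested rows. miR-318-3p, a miRNA of late follicle cells, changed by -2.47 ± 0.26 in mei-p26 (edgeR, adjusted p = 1.80e-07). The germline list (bantam, miR-7, miR-184 and miR-278) summed to 70606 and 66379 CPM in mei-p26, 63349 and 70926 in wh7, and 95225 and 74412 in w1118. All 4 mutant libraries lay below w1118 in this sum, of which bantam-3p, called in neither mutant, was the largest part. The arms did not move together. In both mutants bantam-3p, bantam-5p, miR-7-5p and miR-184-3p had negative log2 fold changes. miR-278-3p, miR-184-5p and miR-7-3p had positive ones (0.22, 1.26 and 0.48 in mei-p26, 0.52, 0.86 and 0.40 in wh7). In mei-p26 1 of the 7 tested arms of the germline list rose (miR-184-5p) and 1 fell (miR-7-5p), against the same 34%. In wh7 0 were called by edgeR or the other tools, against the same 15.3% (1 had an unadjusted edgeR p under 0.05). The part of these differences in the levels of miR-1 and miR-281 was not tested.

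Profiles across the 6 libraries were compared by the root mean square difference of log2 CPM, each miRNA centred on its own mean. Of 139 other tested miRNAs, the nearest to miR-1-3p were miR-316-5p (0.20 log2 units), miR-996-5p (0.21), miR-965-5p (0.26) and miR-963-5p (0.26), where the median miRNA was at 0.64. miR-316-5p rose in mei-p26, with a log2 fold change of 0.98 ± 0.24 (edgeR, adjusted p = 0.00249) and had 0.54 ± 0.24 in wh7 (edgeR, adjusted p = 0.147). The other 3 did not pass in either mutant. Nearest to miR-281-3p were miR-31b-5p (0.53), miR-1012-3p (0.58), miR-318-3p (0.59) and miR-314-3p (0.70), where the median was 1.75. Of these, miR-31b-5p, miR-1012-3p and miR-318-3p fell in mei-p26, with log2 fold changes of -2.80, -1.91 and -2.47 (edgeR, adjusted p = 5.94e-05, 9.09e-05 and 1.80e-07). miR-314-3p, with 0 and 3 counts in mei-p26, had -2.44 ± 1.06 (edgeR, adjusted p = 0.0820). None of the 4 passed in wh7 against w1118, where edgeR gave adjusted p of 0.0778 to 0.757. Their log2 fold changes there were all positive. They were 0.23 for miR-31b-5p, 0.83 for miR-1012-3p, 0.17 for miR-318-3p and 1.87 for miR-314-3p, beside 0.93 for miR-281-3p. Within the group, miR-281-2-5p was closer to miR-281-3p (0.33) than any of them, while miR-1-5p was at 0.90 from miR-1-3p, and miR-1-3p and miR-281-3p were 1.84 apart.

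**Figure D4:**
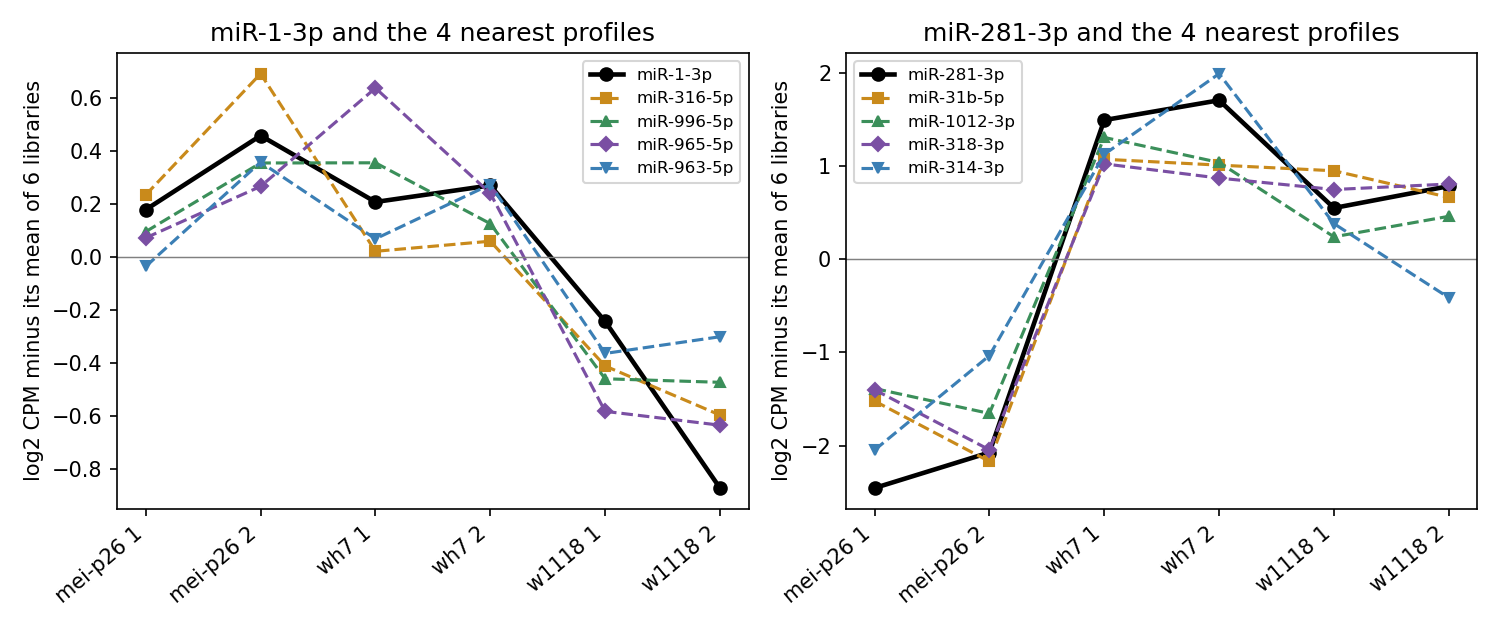
Log2 CPM of each miRNA minus its mean over the 6 libraries, for miR-1-3p (left) and miR-281-3p (right) in black and for the 4 miRNAs with the nearest profiles in colour; lines only join the values of 1 miRNA. The profiles on the left are lowest in w1118, and those on the right are lowest in both mei-p26 libraries.

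**Figure D5:**
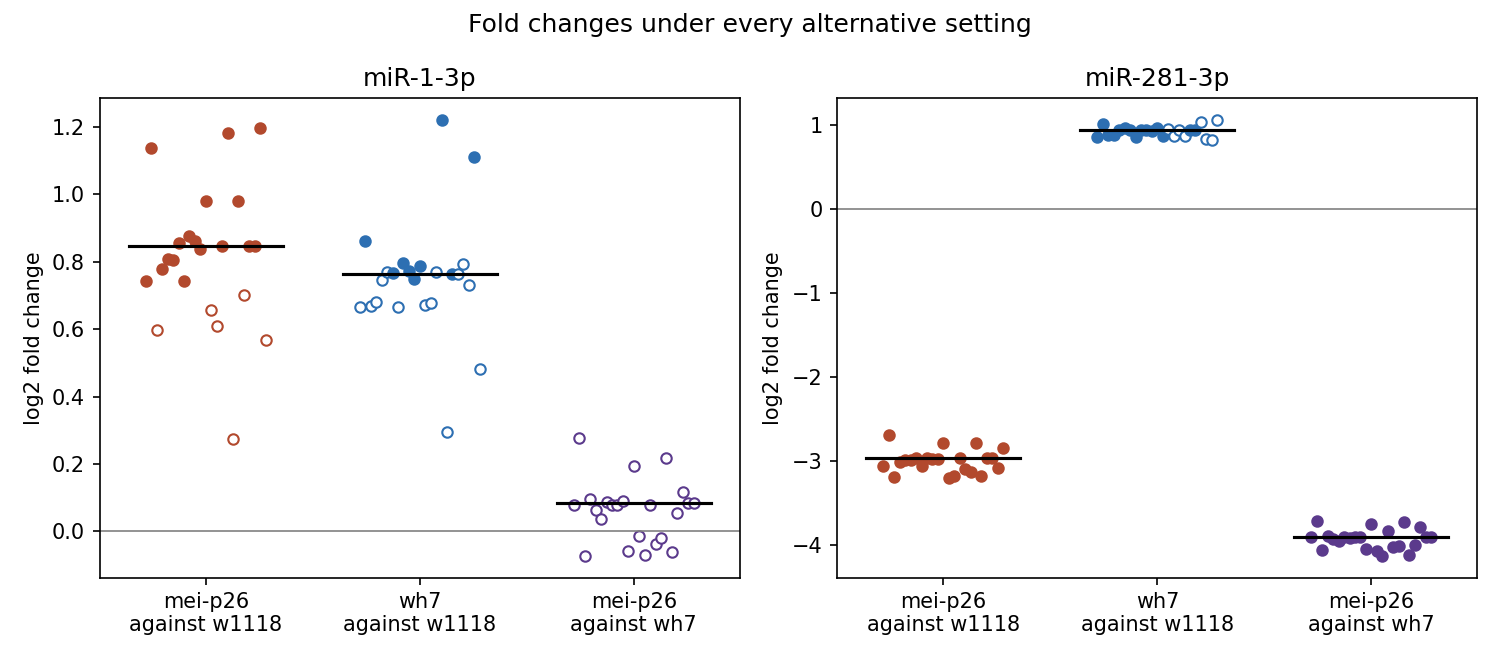
Log2 fold changes of miR-1-3p and miR-281-3p in each comparison under every alternative setting (points, filled where the adjusted p is below 0.05), with the reported value as a black line. For miR-281-3p the points stay close to the line, some of them open in wh7, and for miR-1-3p against w1118 they reach down to 0.28 in mei-p26 and 0.30 in wh7.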

How the data were processed

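Libraries were made with the QIAseq miRNA kit, per the labels' protocols. The submitters' processing notes name bcl2fastq 2.20, Trimmomatic and the BDGP5 build; the aligner and counter, and whether molecular identifiers were collapsed, were not given in the sources used here. PCR copies may thus be counted. The authors deposited raw read counts per mature miRNA and precursor; control columns headed W118 were taken as w1118. The authors' deposited signed fold changes (a score, negative where lower in the mutant) and p-values, from an unnamed test, are quoted as theirs; 12 columns of normalised values and means were not used.

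Counts of all rows entered 1 edgeR 4.0.16 quasi-likelihood fit (R 4.3.3) of 6 libraries, with TMM scaling, filterByExpr at a minimum count of 10, and Benjamini-Hochberg adjustment within each comparison; 188 rows had no count. Arm ratios used limma 3.58.1 with a pseudocount of 1. SEs are the log2 fold change over the root of its F statistic. The scripts were tested on simulated data. Alternatives were other scalings, filters and row choices, DESeq2 1.42.0, limma-voom, a replicate block, fits of only the groups compared and each library left out; leaving out with scaling factors kept was added after seeing the data. Named miRNAs are all members, up to 4 of each comparison list and the 4 nearest profiles (log2 CPM, prior count of 2) of each tested main arm; any other name was picked with its value known. The members and lists were chosen with earlier results of these data known.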

Additional observations from a re-analysis of the deposited data

Results flagged for a closer look

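Among the 4 tested arms of the group, only miR-281-3p had called changes of opposite sign in the mutants against the shared w1118 libraries. The pattern is not particular to it. Outside the group, miR-5-5p had 2.92 in wh7 and -2.01 in mei-p26 (edgeR, adjusted p = 0.000609 and 0.0339). How many of all tested rows share the pattern was not counted. For miR-281-3p, both mei-p26 libraries lay below and both wh7 libraries above the w1118 libraries. The log2 fold change of mei-p26 against wh7 was -3.90 ± 0.31 (edgeR, adjusted p = 3.81e-09). The fall in mei-p26 alone could make that test pass, so it does not bear on the sign in wh7. The rise in wh7 (0.93) lost its call when any wh7 or w1118 library was left out. Per 100 counts of miR-1-3p, the wh7 libraries (16.0 and 17.8) fell between those of w1118 (11.4 and 20.7).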

How the results depend on the processing

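Directions against w1118 held for miR-1-3p, miR-281-3p and miR-281-2-5p under every setting tried, and no call reversed. The rise of miR-1-3p in mei-p26 lost its call under upper-quartile scaling (0.60). Its rise in wh7 lost it under RLE scaling (0.66), upper-quartile scaling (0.67), scaling without the 10 most abundant rows (0.68), DESeq2 (0.66), a minimum mean count of 50 (0.77) and no filter (0.75). Leaving out 1 library gave miR-1-3p 0.28 to 1.18 in mei-p26 and 0.30 to 1.22 in wh7, miR-281-3p 0.86 to 0.96 in wh7, and miR-1-5p 0.071 to 2.63 in mei-p26 against w1118 and -0.26 to 1.62 in mei-p26 against wh7. In wh7 against w1118 it gave miR-1-5p -0.21 to 1.74 and miR-281-2-5p 0.55 to 1.67.

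With the scaling factors of all 6 libraries kept, chosen after seeing the data, miR-1-3p lost its call in mei-p26 without mei-p26 replicate 2 (0.70) or w1118 replicate 2 (0.57), and in wh7 without mei-p26 replicate 2 (0.76), wh7 replicate 1 (0.79), wh7 replicate 2 (0.73) or w1118 replicate 2 (0.48). miR-281-3p lost its call in wh7 without wh7 replicate 1 (1.04) or 2 (0.82), or w1118 replicate 1 (0.82) or 2 (1.06). miR-1-5p passed without mei-p26 replicate 1, at 2.03 against w1118 and 1.65 against wh7. An arm left with 1 library is assumed to vary like the other groups. The cause of these changes was not tested.

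Called rows numbered 51 in mei-p26 against w1118, 23 in wh7 against w1118 and 41 in mei-p26 against wh7. With a mean count of at least 50, which tests fewer rows, they numbered 26, 9 and 26. Leaving out 1 library gave 34 to 59, 10 to 30 and 34 to 55. With kept factors, wh7 against w1118 had 14 or 13 when wh7 replicate 1 or 2 was left out, and 10 or 8 when w1118 replicate 1 or 2 was. In mei-p26 against w1118 the 32 higher and 19 lower calls became 22 and 25 under upper-quartile scaling and 27 and 32 without w1118 replicate 2, but 31 and 20 without it when the scaling factors were kept. In wh7 against w1118 the 17 higher and 6 lower calls became 7 and 11 without w1118 replicate 2, but 6 and 2 with the factors kept. The arm ratios of dme-mir-1 and dme-mir-281-2 were not called under any of 10 settings in any comparison.

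Samples share replicate numbers, but same-numbered libraries did not deviate together (Pearson r over 150 rows of 0.0895 for mei-p26 and wh7, -0.0160 for mei-p26 and w1118, and -0.330 for wh7 and w1118), so the numbers were not taken to pair them. With the replicate number as a replicate block, 50, 26 and 41 rows were called in mei-p26 against w1118, wh7 against w1118 and mei-p26 against wh7, and miR-1-3p had 0.86 in mei-p26 and 0.77 in wh7. No call of the 4 tested arms changed. Depth limits miR-133, miR-281-1-5p and, in mei-p26, miR-281-2-5p, which hold a few counts a library.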
